A study of Mus musculus with 786 samples.

Results

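The mouse Hox genes were followed through single stem cells and bulk blood precursors of the bone marrow. The members are all genes whose name in the deposited tables is Hoxa, Hoxb, Hoxc or Hoxd followed by a number. There are 39 of them among the 21664 genes of the single-cell tables and the same 39 among the 18855 genes of the bulk table. HoxA has 11 genes on chromosome 6, HoxB 10 on chromosome 11, HoxC 9 on chromosome 15 and HoxD 9 on chromosome 2, as the files place them.

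Hox genes encode homeodomain transcription factors that lie in 4 clusters, and their order along a cluster matches the order in which they are used along the body axis of the embryo. In blood they are known chiefly for the HoxA and HoxB clusters, whose products act together with the cofactors Pbx and Meis, are kept active by the Mll complex and are silenced by Polycomb proteins. Several members are known regulators of stem cell self-renewal, and Hoxa9 is a known driver of leukaemia. Below, paralogue groups 1 to 3 are called anterior, 4 to 8 central and 9 to 13 posterior.

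Cells came from C57BL6 mice 6 to 8 weeks old with no engineered allele named in the labels. The gate CD48-CD150+CD135-CD34- defined haematopoietic stem cells (HSC), and the same markers with CD34+ defined multipotent precursors 1 (MPP1). Single cells were amplified by Smart-seq on 7 plates, of which HSC plates 1 and 2 and MPP1 plates 1 and 2 are numbered biological replicates, 1 plate holds HSC and 1 holds MPP1 from bled mice, and HSC plate 3 carries an RNA spike-in. The label of HSC plate 3 calls it an HSC replicate, but its growth note speaks of normal and bled mice together, so it is given beside the other plates and enters alternative comparisons but no main test. It and the bled plates stand in tables of their own, normalised apart from the rest, which bears on every level compared across them. Bulk RNA came from 18 sorted populations of 1000 cells, with 1 library each. These are HSC and MPP1 to MPP4, called multipotent below, and 13 later ones, from common myeloid, lymphoid and megakaryocyte-erythroid progenitors (CMP, CLP, MEP) to erythroid precursors and mature megakaryocytes.

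Wells labelled with 1 cell were used when 1000 genes or more reached FPKM 1. FPKM counts sequenced fragments of a gene relative to its transcript length and to all fragments of that library. Of 460 wells labelled with 1 cell, 373 were used, between 48 and 73 per plate. The median number of genes per cell was 2157.5, 2594 and 1969 on HSC plates 1, 2 and 3, 2535 and 2520.5 on the pair of MPP1 plates, 2443 in bled HSC and 3046.5 in bled MPP1. Read depth is unknown, since the files used here hold FPKM, and intervals for shares of cells (exact Clopper-Pearson, 95%) cover counting error only. Where a count was 0, the share it allows is given instead as 3 counts divided by the number of wells or cells. For the groups described this way, that limit lies somewhat below the upper end of the exact interval. A gene counts as detected in a cell at FPKM 1 or more. The labels do not say whether a plate holds cells of 1 mouse or of several, so the spread between plates may be technical in part. Kit, the stem cell factor receptor of all these gates, was detected in 72.9% to 96.1% of cells per plate. Cd34 was detected in 34% to 56.6% of cells on the 3 HSC plates against 70.6% and 70.8% on the MPP1 plates. Transcripts of the other gate markers did not all follow the gate. Slamf1, which encodes CD150, was detected in only 4% to 27.1% of cells per plate. Cd48 was detected in 0% to 8% and Flt3, which encodes CD135, in 0% to 19.6%. Summed plate mean FPKM of the marker lists for other cells was at most 3.59 for stroma and endothelium, 9.81 for neutrophils and 0.135 for macrophages, with Pdgfra, C1qa and C1qb at 0 on every plate. The B cell list summed to 15.7 to 105 with Ebf1 at 0, and the erythroid list to 18.4 to 67.9. The megakaryocyte list (Pf4, Ppbp and Itga2b) summed to 14.8, 41.0 and 28.2 FPKM on the HSC plates, 245 and 162 on the MPP1 plates, 10.7 in bled HSC and 142 in bled MPP1. The list of T and NK cells summed to between 36.7 and 39.3 on the HSC plates, 173 and 74.5 on the MPP1 plates, 13.4 in bled HSC and 32.0 in bled MPP1. The part of these markers in the Hox results was not tested.

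The DNA ahead of the start site is shown for the most often detected members, for Hoxb4, and for Hoxa13, a member of the HoxA cluster that no cell held. Each line gives the 250 bases before a RefSeq start site (build GRCm38.p6), 5′ to 3′ on the gene's strand, with CG dinucleotides in capitals, since Hox promoters are known for CpG islands and for Polycomb binding. Hoxa10 has a pair of start sites in this source, and the one printed is that with more CG dinucleotides.
Hoxa5 chr6:52204588-52204837 minus strand: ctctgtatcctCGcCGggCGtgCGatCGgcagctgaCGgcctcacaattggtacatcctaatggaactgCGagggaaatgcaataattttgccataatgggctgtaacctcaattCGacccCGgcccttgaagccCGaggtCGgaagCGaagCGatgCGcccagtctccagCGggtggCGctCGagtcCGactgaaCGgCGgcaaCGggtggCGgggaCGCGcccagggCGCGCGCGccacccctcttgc
Hoxa9 chr6:52227371-52227620 minus strand: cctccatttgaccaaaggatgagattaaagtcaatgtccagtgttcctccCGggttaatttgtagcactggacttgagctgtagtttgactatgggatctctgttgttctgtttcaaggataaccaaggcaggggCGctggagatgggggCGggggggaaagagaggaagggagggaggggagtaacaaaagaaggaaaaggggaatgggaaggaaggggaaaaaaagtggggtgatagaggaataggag
Hoxa10 chr6:52234940-52235189 minus strand: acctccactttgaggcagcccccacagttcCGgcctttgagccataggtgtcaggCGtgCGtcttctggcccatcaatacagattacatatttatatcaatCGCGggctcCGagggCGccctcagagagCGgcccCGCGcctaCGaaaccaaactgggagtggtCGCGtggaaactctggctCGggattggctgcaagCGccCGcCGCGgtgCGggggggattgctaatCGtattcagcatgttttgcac
Hoxa13 chr6:52260881-52261130 minus strand: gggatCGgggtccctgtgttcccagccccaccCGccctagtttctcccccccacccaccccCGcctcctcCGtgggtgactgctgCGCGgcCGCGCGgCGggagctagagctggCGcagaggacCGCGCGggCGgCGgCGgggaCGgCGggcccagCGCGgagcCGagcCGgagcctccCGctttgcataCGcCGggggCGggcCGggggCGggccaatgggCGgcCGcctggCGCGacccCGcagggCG
Hoxb4 chr11:96318017-96318266 plus strand: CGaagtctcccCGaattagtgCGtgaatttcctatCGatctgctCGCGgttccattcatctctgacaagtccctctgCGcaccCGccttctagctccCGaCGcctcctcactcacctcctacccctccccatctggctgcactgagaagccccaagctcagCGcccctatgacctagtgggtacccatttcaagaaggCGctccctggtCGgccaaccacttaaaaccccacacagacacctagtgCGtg

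The number of CG dinucleotides varied widely among members that were seen and members that were not. It was 3 for Hoxa9 and 28 for Hoxa5, which were detected in 77 and 68 of 373 cells, and 35 for Hoxa13, which was detected in none. The median over all 32851 promoter windows of the source was 6. RefSeq windows were at hand for 22 of the 39 members (24 windows, median 12.5). The 7 windows of members detected in 10 or more cells held 3 to 28 CG dinucleotides (median 14), and the 13 windows of members detected in no cell held 2 to 35 (median 12). The Pbx-Hox motif TGATNNAT, searched on both strands, occurred in 4 of the 24 windows (Hoxa2, Hoxb1, Hoxb8 and Hoxd11) and in 7.68% of all windows. The Meis motif TGACAG, which begins with the same 3 bases, occurred in 2 of them (Hoxa2 and Hoxa3) and in 15.9% of all windows. Neither lies in the windows printed above. The TATA box letters TATAAA, on either strand, occurred in 4 (Hoxa10, Hoxb8, Hoxd4 and Hoxd13) against 12.4% of all windows, and the Hoxa10 match is in the window shown.

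Only the HoxA and HoxB clusters were seen with any regularity. In the 373 cells there were 453 detections of a Hox gene, of which 348 fell to HoxA, 102 to HoxB, 2 to HoxC and 1 to HoxD. Hoxa10, Hoxa9, Hoxa5 and Hoxa7 together made up 66.4% of all detections. Of the 39 members, 20 were detected in at least 1 cell and 9 in at least 10 cells. HoxC was limited to 1 cell with Hoxc6 at 167 FPKM and 1 cell with Hoxc9 at 1.37 FPKM, and HoxD to 1 cell with Hoxd1 at 61.5 FPKM.

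**Figure D1:**
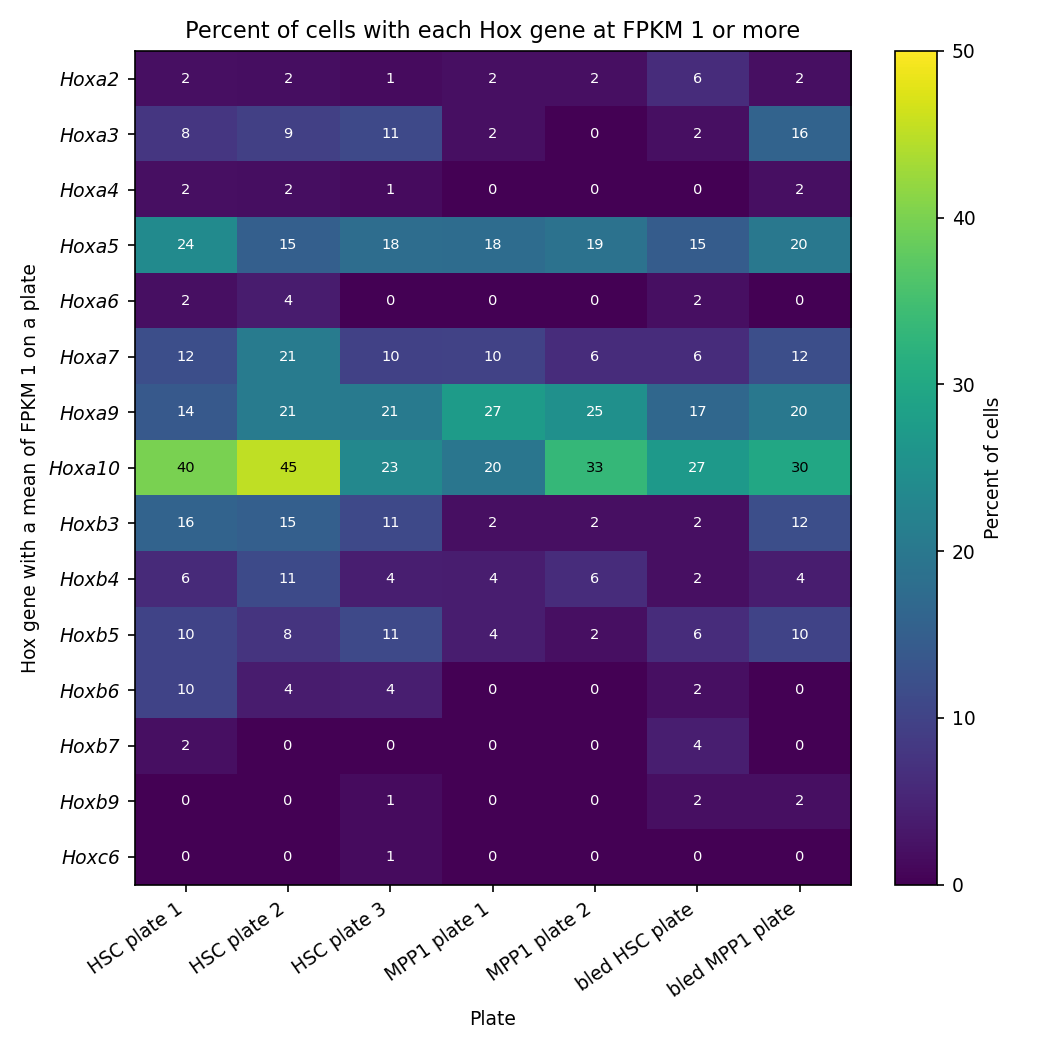
Percent of cells (colour and printed value) in which each of 15 Hox genes reached FPKM 1, by plate. These are the members whose mean reached FPKM 1 on at least 1 plate. Hoxa10 was detected on every plate in 19.6% to 45.3% of cells, while Hoxc6 rests on 1 cell.

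Detection differed by position within a cluster. In HoxA, Hoxa2 to Hoxa7 were all seen, and of the posterior genes Hoxa9 and Hoxa10 were seen while Hoxa11 and Hoxa13 were listed at 0 in every cell. In HoxB, Hoxb1 and Hoxb13 at the ends of the cluster were detected in no cell and the other 8 genes in 1 to 33 cells. In all, 19 members were detected in none of the 373 cells: Hoxa11, Hoxa13, Hoxb1, Hoxb13, Hoxc4, Hoxc5, Hoxc8, Hoxc10 to Hoxc13, and every HoxD gene but Hoxd1. A value of exactly 0 in such a table can be a failed estimate, so these genes are described as listed at 0 or under FPKM 1 rather than as absent.

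Cells held few Hox genes at a time. No Hox gene was detected in 107 of 373 cells (28.7%), 1 gene in 135, 2 in 90, 3 in 28 and 4 or 5 in 13. The 2 cells with 5 genes came from HSC plates 2 and 3, and the one on plate 3 held Hoxa7, Hoxa9, Hoxa10, Hoxb4 and Hoxb8. Genes close together in a cluster were often seen apart, with each detected in a minority of all cells. Hoxa9 and Hoxa10 were both detected in 27 cells, which is 35.1% of the cells with Hoxa9 and 23.5% of those with Hoxa10. Hoxa5 and Hoxa7 shared 4 cells, 5.88% and 9.76% of the cells with each. Hoxb3 and Hoxb5 shared 2 cells, 6.06% and 7.14% of the cells with each. Over all 373 cells, Hoxa10 was detected in 30.8% and Hoxa9 in 20.6%. Hoxa7 was detected in 11.0% and Hoxa5 in 18.2%, and Hoxb5 in 7.51% and Hoxb3 in 8.85%. The overlaps were not tested against these shares and are a description. A HoxA gene was present in 66.7% of the 90 cells with a HoxB gene and in 61.8% of the 283 cells without one. Cells with a HoxA gene had a median of 2507 genes detected against 2159 in those without, whereas cells with and without a HoxB gene had 2396 and 2388.

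**Figure D2:**
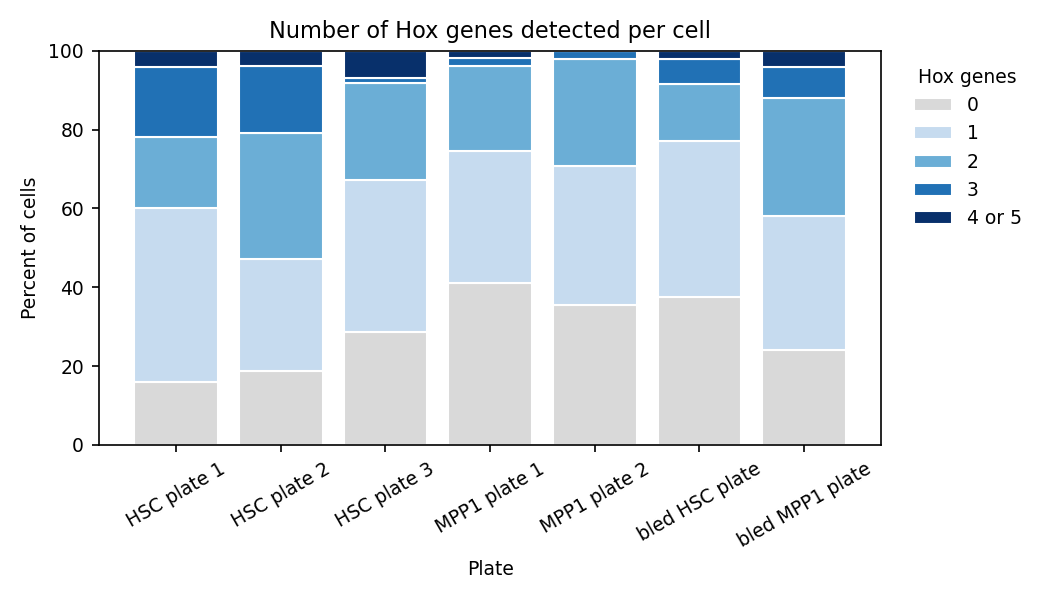
Number of Hox genes at FPKM 1 or more per cell, as a percent of the cells of each plate (stacked bars). Cells with no Hox gene were 16% and 18.9% on HSC plates 1 and 2 and 41.2% and 35.4% on the MPP1 plates.

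Wells labelled as empty gave the background of this measurement. At least 1 Hox gene was detected in 84%, 81.1% and 71.2% of the cells on HSC plates 1, 2 and 3, in 58.8% and 64.6% on the pair of MPP1 plates, in 62.5% in bled HSC and 76% in bled MPP1. In the wells of the same plates labelled with no cell the shares were 28.6%, 8.33%, 0%, 35.7%, 15.4%, 0% and 0%, in the same order. The cells stood above the empty wells on each of the 7 plates, by 58.6 ± 18.4 percentage points (mean ± SD, n = 7 plates; exact two-sided sign-flip permutation test, p = 0.0156, the smallest this design can give). Cells were used only at 1000 genes or more, whereas empty wells were taken whatever their number of genes. This favours a higher share in cells, so the p-value supports no conclusion beyond that filter. Of the 150 empty wells, 20 reached 1000 genes like a cell, and 9 of these 20 (45%) had a Hox gene against 10 of the other 130 (7.69%). All 20 lay on HSC plate 1, the MPP1 plates and the bled MPP1 plate. Empty wells had a median of 147.5 to 841 genes per plate.

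HoxA exceeded HoxB in summed level in the cells of each plate. The sum of the plate mean FPKM over HoxA genes was 52.3, 26.7 and 25.9 on HSC plates 1, 2 and 3, 17.0 and 11.2 on the MPP1 plates, 16.3 in bled HSC and 10.0 in bled MPP1. The sum over HoxB genes was 18.0, 3.52 and 5.48 on the HSC plates, 0.479 and 5.79 on the MPP1 plates, 2.86 in bled HSC and 2.26 in bled MPP1. HoxA was the higher on 7 of 7 plates, with a log2 ratio of the sums, each plus 1, of 2.07 ± 0.88 (SD, n = 7; exact two-sided sign-flip permutation test, p = 0.0156). HoxA counts 1 gene more than HoxB, and the plate sums of both fall partly to single cells, as described gene by gene below. In empty wells of HSC plate 1 the order was reversed, at 5.75 FPKM for HoxA and 224 for HoxB, the latter above cells. In those of MPP1 plate 1, HoxA stood at 19.97 FPKM, above cells, and HoxB at 0.176. In those of MPP1 plate 2, HoxA was the higher too, and both sums were below those of cells. Both sums were 0 in empty wells of HSC plates 2 and 3 and of the bled plates. The order in cells was not tested against that in empty wells.

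The comparison of MPP1 with HSC asks whether Hox expression differs where CD34 appears at the cell surface. MPP1 plates held fewer cells with a HoxB gene. The share was 44% (interval 30.0% to 58.7%), 32.1% (19.9% to 46.3%) and 27.4% (17.6% to 39.1%) on HSC plates 1, 2 and 3, and 7.84% (2.18% to 18.9%) and 10.4% (3.47% to 22.7%) on the pair of MPP1 plates. The plates of the 2 cell types did not overlap. Between HSC plates 1 and 2, with 38.0% ± 8.43, and the MPP1 plates, with 9.13% ± 1.82 (SD, n = 2 plates each), the difference was -28.9 percentage points (exact two-sided permutation test, p = 0.333, the lowest value open to 2 against 2 plates). With HSC plate 3 added the difference was -25.4 points (exact permutation test, p = 0.1, again the smallest possible). This share was chosen after its values were seen.

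**Figure D3:**
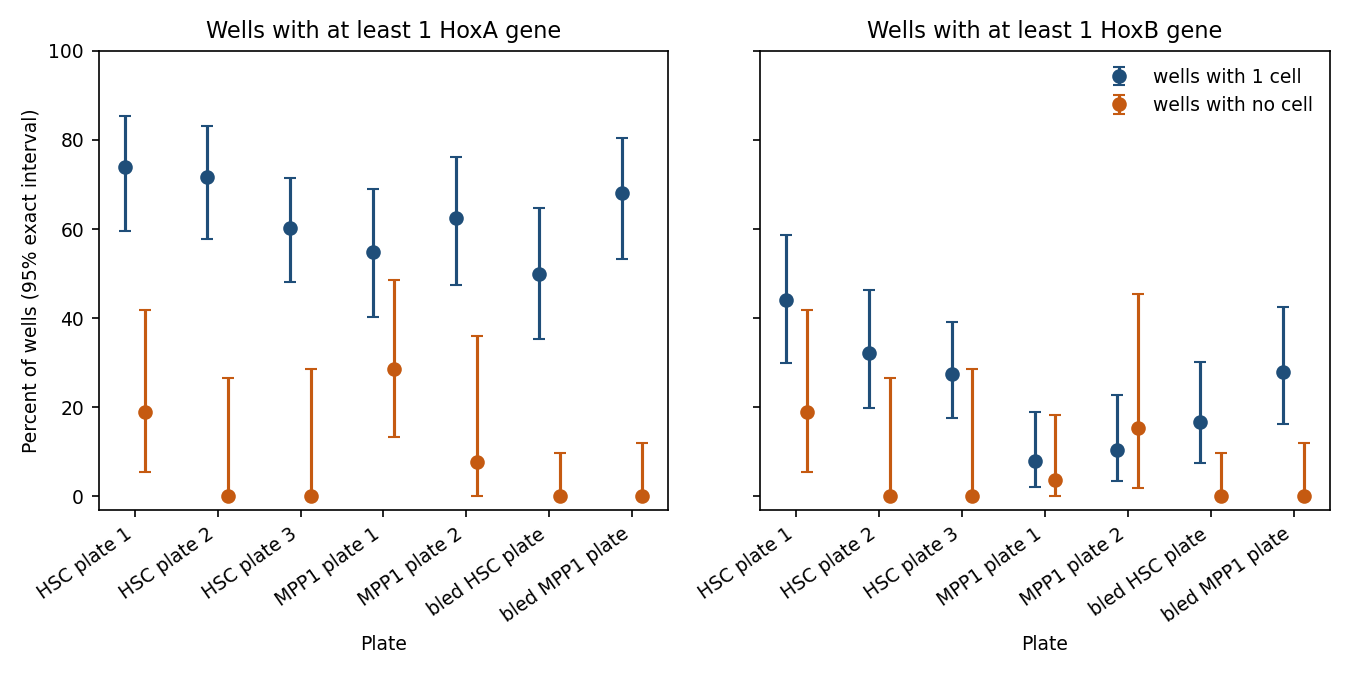
Percent of wells with at least 1 HoxA gene (left) or HoxB gene (right) at FPKM 1 or more, by plate, for wells with 1 cell (blue) and with no cell (orange); bars are exact 95% binomial intervals. HoxB shares were 27.4% to 44% on the HSC plates and 7.84% and 10.4% on the MPP1 plates.

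The HoxB shares of cells had intervals that overlapped those of the empty wells of the same plate, on the HSC plates as on the MPP1 plates. On MPP1 plate 2, 2 of 13 empty wells (15.4%) held a HoxB gene, against 10.4% of cells, and on MPP1 plate 1 it was 1 of 28 (3.57%) against 7.84%. On HSC plate 1, 4 of 21 empty wells (19.0%) held one, and on HSC plates 2 and 3 none of 12 and none of 11 did, which allows a share of up to 25% and 27.3%. Over all 7 plates a HoxB gene was detected in 7 of 150 empty wells (4.67%) and in 90 of 373 cells (24.1%). Among empty wells with fewer than 1000 genes it was 0 of 22 on MPP1 plate 1, 1 of 9 on MPP1 plate 2 and 3 of 130 (2.31%) over all plates. By either count the share of cells on MPP1 plate 2 was below that of its empty wells, and on MPP1 plate 1 it was above. The median number of genes per cell was higher on both MPP1 plates than on HSC plates 1 and 3 and lower than on HSC plate 2. Its part in the HoxB shares was not tested.

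The HoxA cluster as a whole did not separate these plates. A HoxA gene was detected in 74%, 71.7% and 60.3% of cells on HSC plates 1, 2 and 3 and in 54.9% and 62.5% on the MPP1 plates, so that the plates overlapped once HSC plate 3 was counted. Between HSC plates 1 and 2 and the MPP1 plates the difference was -14.1 percentage points (exact permutation test, p = 0.333). Within HoxA, posterior genes were detected in 46%, 58.5% and 38.4% of HSC and in 41.2% and 45.8% of MPP1, which overlap. Central genes were seen in 40%, 39.6% and 24.7% of HSC and 25.5% and 25% of MPP1, which also overlap. Anterior genes were seen in 10%, 15.1% and 12.3% of HSC and in 3.92% and 2.08% of MPP1, which do not. The difference between the clusters was not tested.

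Counted over all members, the HSC plates had more Hox genes per cell than the MPP1 plates. The mean number was 1.5, 1.6 and 1.21 per cell on HSC plates 1, 2 and 3 and 0.902 and 0.958 on the MPP1 plates. HSC plates 1 and 2 averaged 1.55 ± 0.073 and the MPP1 plates 0.930 ± 0.040 (SD, n = 2 plates each), a difference of -0.622 genes per cell (exact two-sided permutation test, p = 0.333). With HSC plate 3 the difference was -0.506 (exact permutation test, p = 0.2), and no plate of HSC fell within the range of the MPP1 plates.

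In the fit of plate mean levels across all genes, no Hox gene passed. limma tested log2(plate mean FPKM + 1) in the 9833 genes that averaged FPKM 1 or more across the 4 plates, and 1 of them, 0.0102%, had an adjusted p under 0.05. Of the 39 members, 10 reached that level, 0 of 10 passed, and none had an unadjusted p under 0.05, against 6.78% of all genes tested. The 10 had a median log2 difference of -1.24, with 9 lower and 1 higher in MPP1, beside a median of -0.04 and 51.6% lower over all genes tested. Since several of the 10 reached the level only through HSC cells, this median is a description and supports nothing. Without HSC plate 1 it was -0.19 over the 5 members that then reached the level.

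Hoxa10, a posterior HoxA gene known in myeloid and megakaryocyte development, was the most often detected member. It was found in 40%, 45.3% and 23.3% of cells on HSC plates 1, 2 and 3, in 19.6% and 33.3% on the MPP1 plates, in 27.1% in bled HSC and 30% in bled MPP1. Its mean level was 16.3, 11.7 and 8.44 FPKM on the HSC plates, 6.09 and 2.44 on the MPP1 plates, 5.09 in bled HSC and 2.08 in bled MPP1. By level, both MPP1 plates lay below all 3 HSC plates, whereas by share of cells the plates overlapped. The log2 difference of MPP1 from HSC was -1.58 (SE 0.82, adjusted p = 0.778).

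Hoxa9, the leukaemia-associated partner of Meis1, showed no such order by level. Its mean was 4.13, 4.20 and 3.92 FPKM on the HSC plates, 3.20 and 3.94 on the MPP1 plates, 1.302 in bled HSC and 3.18 in bled MPP1, so HSC and MPP1 overlapped. The log2 difference was -0.18 (SE 0.91, adjusted p = 0.986). By share of cells it was the 1 member of 9 that was higher on both MPP1 plates (27.5% and 25%) than on all HSC plates (14%, 20.8% and 20.5%), an order that 18.1% of the 9784 genes detected in at least 10 of these cells also had. In the mean over cells of log2(FPKM + 1) its difference turned to 0.19 (adjusted p = 0.900).

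Hoxa5, a central HoxA gene known to act in the choice between myeloid and erythroid fate, was found at near equal shares. It was detected in 24%, 15.1% and 17.8% of HSC, 17.6% and 18.8% of MPP1, 14.6% of bled HSC and 20% of bled MPP1. Its mean level was 13.7, 3.68 and 9.56 FPKM on the HSC plates, 3.32 and 2.76 on the MPP1 plates, 4.81 in bled HSC and 1.95 in bled MPP1, with both MPP1 plates below all 3 HSC plates. A single cell at 454 FPKM carried 65.0% of the sum on HSC plate 3, and the log2 difference was -1.04 (SE 0.93, adjusted p = 0.862). Hoxa7, another central gene of HoxA, was detected in 12%, 20.8% and 9.59% of HSC and 9.80% and 6.25% of MPP1. Its mean levels of 8.93, 2.10 and 2.65 FPKM in HSC and 3.38 and 1.56 in MPP1 overlapped. The direction of its log2 difference, -0.73 (SE 0.99, adjusted p = 0.919), turned to 0.11 without HSC plate 1.

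**Figure D4:**
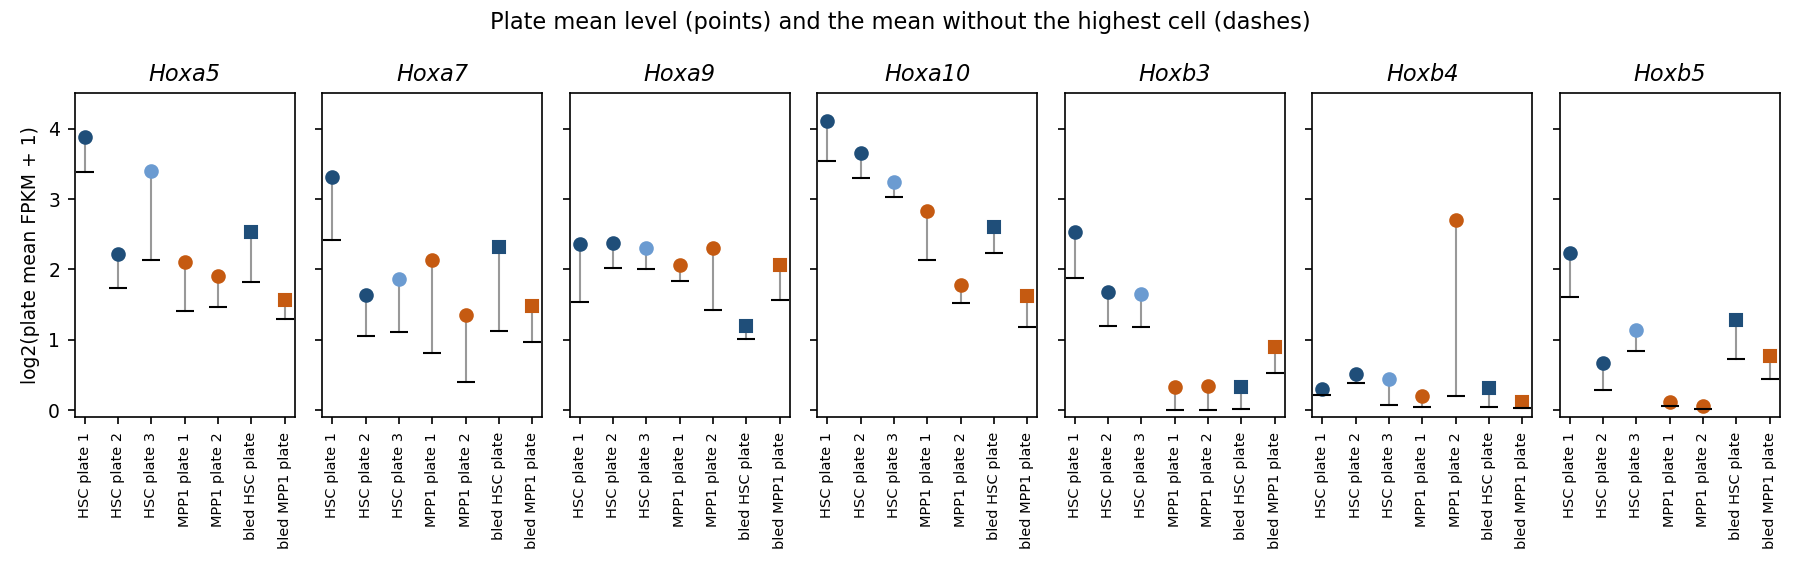
log2(plate mean FPKM + 1) of 7 Hox genes on the 7 plates (circles for normal HSC in blue, HSC plate 3 in light blue and MPP1 in orange; squares for bled mice), with dashes at the mean after removal of the highest cell. Hoxb3 stands at 4.76, 2.21 and 2.13 FPKM on the HSC plates and at 0.252 and 0.264 on the MPP1 plates, while the Hoxb4 point of MPP1 plate 2 falls to the level of the others without 1 cell.

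Hoxb3, an anterior HoxB gene that lies next to Hoxb4, was seen mostly in HSC. It was detected in 8 of 50, 8 of 53 and 8 of 73 cells on the HSC plates (16%, 15.1% and 11.0%) and in 1 of 51 and 1 of 48 cells on the MPP1 plates (1.96% and 2.08%). Mean levels were 4.76, 2.21 and 2.13 FPKM in HSC and 0.252 and 0.264 in MPP1. HSC plates 1 and 2 averaged 3.49 ± 1.81 FPKM and the MPP1 plates 0.258 ± 0.0086 (SD, n = 2 each), and the log2 difference was -1.77 (SE 0.96, adjusted p = 0.780). In the mean over cells of log2(FPKM + 1) its unadjusted p was 0.0074 and its adjusted p 0.333. When the share of cells was fitted on an arcsine square root scale over all 5 plates, a fit added after the data were seen, the unadjusted p was 0.0019 for Hoxb3 and 0.0034 for Hoxa3, with adjusted p of 0.340 and 0.431. So 2 of the 10 members tested were lower in MPP1 at an unadjusted p under 0.05, as were 1.75% of all genes in that fit. Both reached the level for the fit through HSC. Hoxa3 averaged 1.86 FPKM on HSC plates 1 and 2 and 0.341 on the MPP1 plates. The filter thus favours a lower share in MPP1, and this count is a description that supports nothing. The share of Hoxb3 in empty wells was 1 well of 150.

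The other HoxB genes and Hoxa3 were rarer. Hoxb5, known as a mark of long-term repopulating HSC, was detected in 10%, 7.55% and 11.0% of HSC and in 3.92% and 2.08% of MPP1. Hoxb6 was detected in 10%, 3.77% and 4.11% of HSC and in none of the 51 and 48 MPP1 cells, which allows a share of up to 5.88% and 6.25%. Hoxa3, the anterior HoxA gene in the same paralogue group as Hoxb3, was detected in 8%, 9.43% and 11.0% of HSC and in 1.96% and 0% of MPP1. Together with Hoxb3, these 3 made 4 of 9 members that were lower on both MPP1 plates than on all 3 HSC plates, an order found in 5.69% of the 9784 genes. This order was counted after the data were seen. The 9 are the members detected in at least 10 cells of these plates, and all 4 met that minimum through HSC, with 0 to 3 MPP1 cells each, so the minimum favours this order and the count is a description that supports nothing. The log2 difference was -1.37 (SE 0.99, adjusted p = 0.853) for Hoxb5 and -1.12 (SE 0.96, adjusted p = 0.858) for Hoxa3.

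Hoxb4, known for expanding HSC when it is overproduced, was the 1 member of the 10 tested that was higher in MPP1 by level. It was detected in 6%, 11.3% and 4.11% of HSC and 3.92% and 6.25% of MPP1. Its mean was 0.235, 0.435 and 0.358 FPKM on the HSC plates, 0.147 on MPP1 plate 1 and 5.49 on MPP1 plate 2. A single cell at 256 FPKM made 97.4% of the last value, which was 0.148 without it, and the log2 difference was 1.03 (SE 1.06, adjusted p = 0.894).

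Several further plate means rested on 1 cell. On HSC plate 1, Hoxb7 was at 332 FPKM in 1 cell (plate mean 6.65), Hoxa6 at 231 in 1 cell (4.62), Hoxa4 at 83.1 in 1 cell (1.66) and Hoxa2 at 78.4 in 1 cell (1.57). On HSC plate 3, Hoxb9 was at 95.5 FPKM in 1 cell and Hoxc6 at 167 in 1 cell. Without the highest cell of each gene and plate, 4 members reached the level for the fit, and 0 of these 4 passed. Over all plates Hoxa2 was found in 9 cells, Hoxa4 and Hoxa6 in 4 each, and Hoxb2, Hoxb7 and Hoxb9 in 3 each, with Hoxb8 in 1. Their shares were too low to compare between plates.

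Bleeding, which forces blood formation to speed up, was studied on 1 plate of each cell type. The HoxB share was 16.7% (interval 7.48% to 30.2%) on the bled HSC plate, below all 3 HSC plates, and 28% (16.2% to 42.5%) on the bled MPP1 plate, above both MPP1 plates. No HoxB gene was detected in the 36 and 29 empty wells of these plates, which allows a share of up to 8.33% and 10.3%. For HoxA the shares were 50% in bled HSC, below all HSC plates, and 68% in bled MPP1, above both MPP1 plates. The mean number of Hox genes per cell was 0.958 in bled HSC and 1.34 in bled MPP1. In cells with 1500 to 3500 genes, the HoxB share of bled minus normal plates was -21.7 points in HSC and 18.5 points in MPP1. The bled MPP1 plate also had the highest median number of genes per cell. The bled plates stand in a table of their own, so that bleeding and the separate processing of the tables cannot be told apart.

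The same opposite order appeared gene by gene. Of the 9 members detected in at least 10 cells of the normal plates, 5 (Hoxa3, Hoxa5, Hoxa7, Hoxb3 and Hoxb5) had a lower share on the bled HSC plate than on all 3 HSC plates and a higher share on the bled MPP1 plate than on both MPP1 plates, as had 8.87% of the 9784 genes. Hoxb3 was detected in 1 of 48 bled HSC (2.08%) and in 6 of 50 bled MPP1 (12%). Hoxa3 was detected in 1 of 48 (2.08%) and in 8 of 50 (16%). Taken apart, 7 of 9 members were lower in bled HSC, beside 18.8% of the genes, and 5 of 9 were higher in bled MPP1, beside 54.7%. The 9 were chosen on the normal plates and several passed through HSC, so these counts are a description too.

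No Hox gene passed in the fit of bled against normal plates. Cell type was a term of this limma fit, which tested 10017 genes. It called 0% of them at an adjusted p under 0.05, and 586 reached 0.05 unadjusted. Of the 8 members tested 0 passed and none reached 0.05 unadjusted. After bleeding 7 were lower and 1 higher, with a median log2 difference of -0.55, beside 0.01 over all genes. Hoxb7 reached the level for this fit through 1 cell on HSC plate 1, and Hoxb4 through 1 cell on MPP1 plate 2. Both are normal plates, so the filter favours a lower value after bleeding, and this median is a description that supports nothing. Hoxa10 had the largest difference, -0.98 (SE 0.72, adjusted p = 0.897). The interaction of bleeding and cell type, added after the data were seen, also called 0% of the 10017 genes. Unadjusted, 511 genes reached 0.05 and none of the 8 members did. For Hoxb3 it was 2.35 (SE 1.21, unadjusted p = 0.095, adjusted p = 0.964).

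Meis1, a DNA-binding partner of Hox proteins, was detected in a larger share of cells than any Hox gene. Meis1 was detected in 81.2% to 98% of cells per plate, with plate means of 195, 303 and 221 FPKM on the HSC plates, 200.3 and 257 on the MPP1 plates, 153 in bled HSC and 237 in bled MPP1. Of the 9 listed cofactors (Pbx, Meis and Pknox genes) 6 were tested between MPP1 and HSC, 3 higher and 3 lower, 0 passed, and 0 reached 0.05 unadjusted. Pbx3 had the lowest p of these, with 4.20 and 8.37 FPKM in HSC and 0.795 and 0.967 in MPP1 (log2 difference -1.89, SE 0.95, adjusted p = 0.761), though it stood at 0.0302 on HSC plate 3.

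Upstream regulators did not pass either. Of 16 listed activators, 13 were tested between MPP1 and HSC, 5 higher and 8 lower with a median of -0.15, 0 passed, and 2 reached 0.05 unadjusted. Psip1, which tethers Mll complexes to chromatin, had 41.0 and 79.9 FPKM in HSC and 22.5 and 16.5 in MPP1 (log2 difference -1.52, SE 0.58, adjusted p = 0.667), with 24.0 on HSC plate 3. Mllt3, a partner of Mll known for maintaining HSC, had 62.3, 51.2 and 39.5 FPKM on the HSC plates and 12.8 and 28.6 on the MPP1 plates, which do not overlap (log2 difference -1.51, SE 0.59, adjusted p = 0.667). The caudal genes Cdx1, Cdx2 and Cdx4, embryonic activators of Hox clusters, were at 0 on every plate. Of 10 Polycomb genes, 9 were tested, 4 higher and 5 lower with a median of -0.40, 0 passed, and 0 reached 0.05 unadjusted. Bmi1, a Polycomb gene needed for HSC self-renewal, had 8.37 and 15.3 FPKM in HSC and 3.62 and 1.94 in MPP1 (log2 difference -1.75, SE 0.87, adjusted p = 0.755), and 3.85 on HSC plate 3. Between bled and normal plates 3 cofactors were higher and 3 lower, 6 activators higher and 7 lower, and 3 Polycomb genes higher and 6 lower, and 0 of these passed in limma, with 1 activator at an unadjusted p under 0.05.

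Genes at the borders of the clusters gave a local contrast. Of 12 listed flanking genes, 10 were tested, 4 higher and 6 lower in MPP1 with a median of -0.27, 0 passed, and 0 reached 0.05 unadjusted. After bleeding 5 were higher and 5 lower, 0 passed, and Hnrnpa1 beside HoxC had the lowest p, with 401 and 318 FPKM on the bled HSC and MPP1 plates against 193 and 192 on HSC plates 1 and 2, 226 on HSC plate 3 and 175 and 150 on the MPP1 plates (log2 difference 1.01, SE 0.31, adjusted p = 0.797). Evx1 and Evx2, homeobox genes at the ends of HoxA and HoxD, and the 6 microRNA genes of the clusters in the tables were at 0 on every plate. Of 5 other homeobox genes of blood, 4 were tested, 2 higher and 2 lower in MPP1, and 0 passed. Tgif2, a repressor of the TALE class to which Meis1 belongs, was at 0.746 and 0.395 FPKM on HSC plates 1 and 2, 11.6 and 5.11 on the MPP1 plates, and 12.6 on HSC plate 3, so that HSC and MPP1 overlapped (log2 difference 2.49, SE 0.96, adjusted p = 0.667).

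In the bulk populations 12 members were above 0 and 5 reached FPKM 1 in any library. They were Hoxa3, Hoxa5, Hoxa7, Hoxa9 and Hoxa10, all of HoxA. No HoxC or HoxD gene was above 0 in any of the 18 libraries. The number of genes at FPKM 1 or more ranged from 1642 in mature megakaryocytes to 6080 in GMP-7, which is a granulocyte-macrophage progenitor gate. With 1 library per population there is no replicate of any single value. In bulk RNA, fewer cells of a type and less RNA per cell cannot be told apart.

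Few libraries held a Hox gene at FPKM 1 or more. Hoxa7 stood at 103 FPKM in CMP and 2.08 in GMP-7 and was at most 0.340 in the other 16 libraries. Hoxa9 stood at 11.8 FPKM in PreCFU-E, an early erythroid precursor, 3.55 in CLP, and 2.12 and 2.23 in GMP-7 and GMP-11. In the multipotent libraries Hoxa9 was at 0.455 in HSC, 0.305 in MPP1, 0 in MPP2, 0.315 in MPP3 and 0.0851 in MPP4. Hoxa10 reached 3.20 FPKM in megakaryocyte-committed progenitors (MKP) and 0.415 in MPP1, and Hoxa5 reached 1.76 in CMP. Hoxa3 stood at 1.99 in bulk HSC and 0.0216 in preGM, and was listed at 0 in the other 16.

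**Figure D5:**
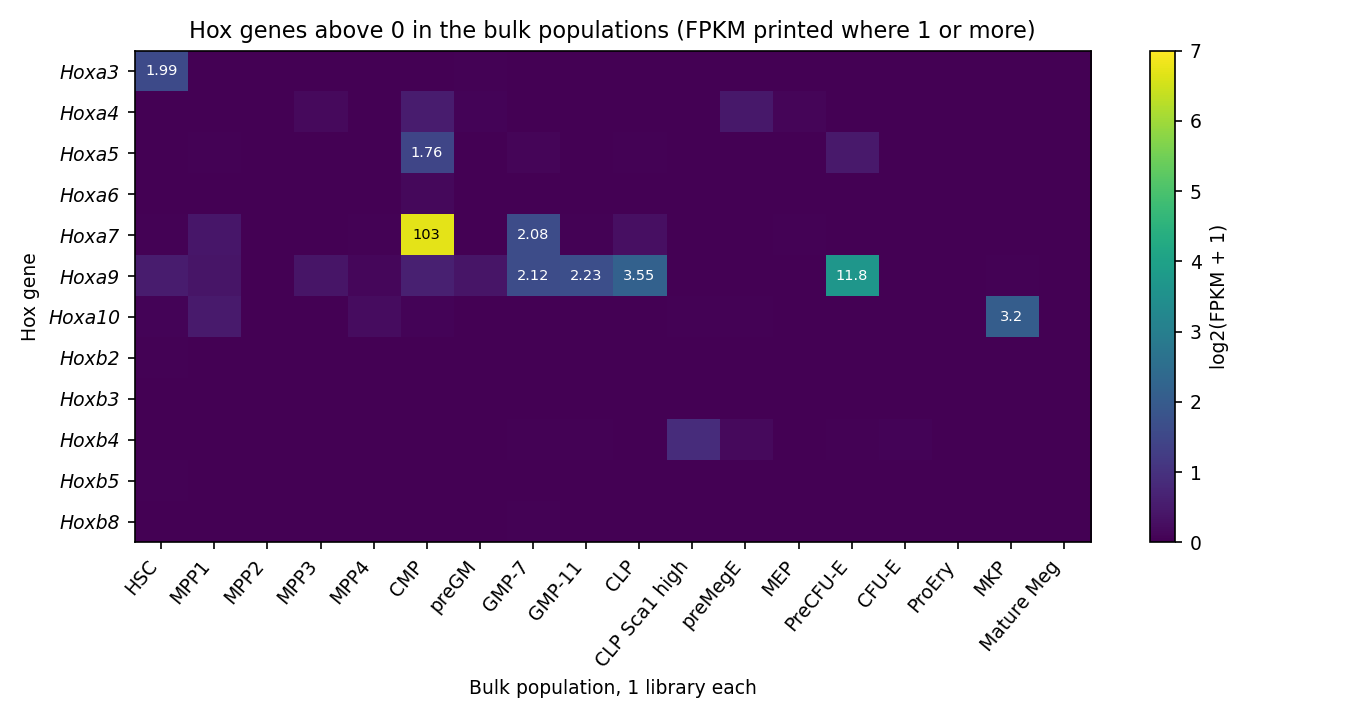
log2(FPKM + 1) of the 12 Hox genes above 0 in the 18 bulk populations (1 library each), with FPKM printed where it was 1 or more. Hoxa7 in CMP (103) and Hoxa9 in PreCFU-E (11.8) are the 2 highest values, and no HoxB gene reached 1.

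HoxB was lower still in bulk. Hoxb4 was highest, at 0.844 FPKM in the Sca1-high CLP gate, and was at most 0.137 elsewhere. Hoxb3 was above 0 in CMP and preGM alone, at no more than 0.0159. In bulk HSC, Hoxb2 stood at 0.0321 and Hoxb5 at 0.0268, and all other HoxB genes were listed at 0 there. In MPP2 and mature megakaryocytes every member was listed at 0. The summed Hox level was 2.59 FPKM in bulk HSC and 1.08 in bulk MPP1, 0 to 0.469 in MPP2, MPP3 and MPP4, 106 in CMP, and 0 to 12.2 in the other 12 populations.

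The multipotent and later groups overlapped for each of the 12 members. In limma across 6824 genes, of which 1 (0.0147%) had an adjusted p under 0.05, 2 members were tested and 0 passed. Different populations, some with overlapping gates, stood as replicates of a stage in this fit. Its p-values thus measure the spread between populations and are too small. Hoxa7 had a median of 0.0226 FPKM over 5 multipotent and 0.0145 over 13 later libraries (log2 difference -0.57, SE 0.74, adjusted p = 0.748). Hoxa9 had medians of 0.305 and 0.0293 (log2 difference -0.50, SE 0.56, adjusted p = 0.716). Over all genes tested the median log2 difference was -0.47, so neither stands far from it. Both members reached the level for this fit only through later libraries, chiefly CMP for Hoxa7 (103 FPKM) and PreCFU-E for Hoxa9 (11.8). In the multipotent libraries they were at most 0.340 and 0.455. The filter thus favours a negative difference, and these 2 values are a description that supports nothing. In the same fit the cofactor Meis1 had 179, 1615, 249, 34.2 and 748 FPKM in HSC and MPP1 to MPP4 and 0 to 219.9 in the later libraries, which overlap. Its log2 difference, multipotent minus later, was 5.49 (SE 1.31, adjusted p = 0.251). Of the 13 activators tested in bulk 1 was higher and 12 lower in the multipotent group, and of the 10 Polycomb genes 3 were higher and 7 lower. In each of these lists 0 passed and 1 reached 0.05 unadjusted. Over all 6824 genes tested, 69.4% were lower in the multipotent group and 626 reached 0.05 unadjusted.

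Single cells and bulk libraries of the same name gave different Hox levels. Hoxa10 was at 8.44 to 16.3 FPKM in the mean of single HSC and at 0.0567 in bulk HSC. Hoxb3 was at 2.13 to 4.76 FPKM in single HSC and listed at 0 in bulk HSC. The bulk label gives CD34+ for HSC, the same marker string as for MPP1, while the single HSC are CD34-. Bulk Cd34 levels were 25.2 FPKM for HSC and 1786 for MPP1, and Ly6a, which encodes Sca1, was at 0.0803 and 0.626 FPKM there against 159 to 422 in single HSC. The amplification methods differ and the tables were normalised separately, so these levels are set side by side without a test.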

How the data were processed

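FPKM values of 7 single-cell plates and 18 bulk libraries were used as the authors deposited them; the submitters' processing notes name TopHat 1.3.3, Cufflinks 1.2.1 and, for HSC plate 3, Bowtie2 2.2.1, with build mm9. Whether strand was used in counting is not given in the sources used here, so reads of overlapping Hox genes or antisense transcripts cannot be told apart. Repeat-run samples of HSC plate 1 (96) share its well names, and its columns could hold either run. The plate was the replicate. limma 3.58.1 (R 4.3.3, trend) tested log2(mean FPKM + 1) in genes whose mean reached 1, with Benjamini-Hochberg adjustment over all genes tested, after checks on simulated data. The pseudocount understates changes of low genes. Members named with values reached FPKM 1 in a plate mean or a bulk library; list genes were named by lowest p, up to 3 per list. Members and lists were chosen with earlier results of these data known. Promoters came from RefSeq (GRCm38.p6). Some genes of the tables are not reported here.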

Additional observations from a re-analysis of the deposited data

Results flagged for a closer look

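The share of cells with a HoxB gene went in opposite directions after bleeding. It was 38.0% on HSC plates 1 and 2 but 16.7% in bled HSC, whereas the MPP1 plates had 9.13% and bled MPP1 28%. The 2 differences lie 40.2 percentage points apart. The same opposite movement was seen for Hox genes per cell, where the differences lie 1.00 apart, for the share of cells with any Hox gene, 34.4 points apart, and for the share with a HoxA gene, 32.1 points apart. None of these gaps was tested, since each bled group has 1 plate, and the 4 measures share the same cells. HSC plate 3, which these gaps leave out, had 27.4% of cells with a HoxB gene and 1.21 Hox genes per cell. It had 71.2% of cells with any Hox gene and 60.3% with a HoxA gene. Each value lay below the mean of HSC plates 1 and 2 and above bled HSC. Bleeding and the separate processing of the bled plates cannot be told apart. The bled MPP1 plate had a median of 3046.5 genes per cell, the highest of the 7. In cells with 1500 to 3500 genes the HoxB differences of bled from normal plates were -21.7 points in HSC and 18.5 points in MPP1.

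Hoxa3 stood at 1.99 FPKM in the bulk HSC library and was listed at 0 in the other 4 multipotent populations. It was the 1 member that reached FPKM 1 in any of these 5 libraries, and was looked at for that reason, so its distance from the others is a description with no chance rate.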

How the results depend on the processing

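No Hox gene passed an adjusted p of 0.05 under any of the alternatives run. Of 90 alternative values of the comparisons none turned in direction or crossed the threshold, and 3, all of 1 median, moved by more than the spread used as a limit. The median log2 difference of MPP1 from HSC over the 10 members tested was -2.23 with a pseudocount of 0.1, in place of -1.24, and ranged from -1.87 to -0.19 when each plate was left out. Leaving out 1 plate turned some single members. In MPP1 against HSC, Hoxa7 ranged from -1.57 (without HSC plate 2) to 0.11 (without HSC plate 1). In bled against normal, Hoxa7 ranged from -0.58 to 0.14 (without HSC plate 1), Hoxb3 from -1.78 to 0.57 (without the bled HSC plate), and Hoxb5 from -0.17 (without the bled MPP1 plate) through -0.013 (without HSC plate 2) to 0.69. In the mean over cells of log2 values, Hoxa9 turned to 0.19 and Hoxb4 to -0.055 in MPP1 against HSC, and Hoxb7 to 0.021 in bled against normal. Without the bled HSC plate the Hox median of bled against normal was -0.062 in place of -0.55, and without the bled MPP1 plate -0.99. Without HSC plate 2, HSC plate 1 alone stood for HSC in MPP1 against HSC. The log2 differences were then -2.49 for Hoxa6, -2.20 for Hoxb3, -2.16 for Hoxb5 and -2.93 for Hoxb7. Hoxa6 and Hoxb7 rested on 1 cell each of that plate and were at 0 on both MPP1 plates. Such members reach the level for the fit through HSC alone, so these values are a description that supports nothing. The causes were not tested.

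Over all genes, the MPP1 comparison called 1 gene, 38 with the mean over cells of log2 values, 6 with each cell scaled to the same total and 8 without the highest cell, and 0 when HSC plate 1 was left out. The bled comparison called 0 genes, and 6 with the mean over cells of log2 values. With the plate number as a replicate block MPP1 against HSC called 58 genes and 0 Hox genes, with a Hox median of -1.24. The labels do not say that a number marks a shared mouse or day, and deviations of same-numbered plates correlated at 0.04 across 9833 genes. Unknown read depth, few cells with a Hox gene and 2 plates per group limit every comparison here.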
